A study of Mus musculus with 88 samples.

Results

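Small nucleolar RNAs (snoRNAs) are short noncoding RNAs that guide the chemical modification of ribosomal and spliceosomal RNA. Box C/D snoRNAs, whose genes are named Snord, pair with a target and place the methyltransferase fibrillarin on a ribose. Box H/ACA snoRNAs, named Snora, present a uridine to the pseudouridine synthase dyskerin. A few members of both classes are needed to cut the precursor of ribosomal RNA. In vertebrates most of them are processed from introns of longer host genes, many of which encode ribosomal proteins or noncoding Snhg transcripts. The gene list described here holds 120 such genes, 80 of box C/D and 40 of box H/ACA, out of 55364 genes in 2 tables. They were chosen from 141 rows with a Snord or Snora symbol followed by a digit, 99 of box C/D and 42 of box H/ACA, as those that reached 10 TPM in at least 2 libraries of either table. TPM, the unit of the tables, scales reads to gene length and then sets the sum of each library to 1000000. Because measured level chose the genes, their levels are given as a description.

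The study asked what Obox homeobox genes do when the embryonic genome is activated, and the libraries used here measured total RNA from whole-cell lysates. Mouse embryonic stem cells (mESCs) were male, wild type and of a C57BL/6 / 129 hybrid background, grew with LIF, PD0325901 and CHIR99021, and received plasmids by lipofection. The plasmids carried Dux, Obox3, Obox5 or Obox6 (2 libraries each), or Obox1, Obox2, Obox4ps27, Obox4ps35, Obox7, Obox8, Crxos1, Crxos2 or Crxos3 (1 library each), or no insert (ES_Empty, 2 libraries). The sources used here give neither the promoter of these plasmids nor the time of collection. Late 2-cell embryos of the BDF1 background came from somatic cell nuclear transfer (SCNT), which puts a cumulus cell nucleus into an enucleated oocyte. They were injected with Obox3 mRNA (SCNT_Obox3_L2C) or EGFP mRNA (SCNT_EGFP_L2C) at 10 ng/µl and set against embryos from intracytoplasmic sperm injection (ICSI_L2C), with 2 libraries per group. Of the 19 mESC and 6 embryo libraries, 3 had a replicate number that the labels do not list, 1 each of ES_Dux, ES_Obox3 and ES_Obox5, and they are called the unnumbered libraries.

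The transfected gene stood at 1548 to 1979 TPM for Duxf3 in ES_Dux, 933 to 971 TPM for Obox5 in ES_Obox5 and 1959 to 2031 TPM for Obox6 in ES_Obox6, with at most 2.87 TPM in any other mESC library. In ES_Obox3 the Obox3 row held only 1.59 to 1.75 TPM, while its near-identical copy Obox3-ps5 held 263 to 451 TPM. Both SCNT_Obox3_L2C libraries had 56.8 to 62.4 TPM of Obox3-ps5, against 1.19 to 6.87 TPM in SCNT_EGFP_L2C and 99.5 to 118 TPM in ICSI_L2C. The Obox3 row held 5.02 to 6.74 TPM in SCNT_Obox3_L2C, 0.470 to 3.22 TPM in SCNT_EGFP_L2C and 64.6 to 78.7 TPM in ICSI_L2C. The injected embryos thus lay below ICSI_L2C in both rows. All 7 mESC marker genes were detected at 1 TPM or more in every mESC library, and 5 to 6 of them in the embryo libraries. At that level the embryo libraries also had 3 to 5 of 5 markers of the 2-cell stage. They had 5 of 5 oocyte markers and 0 to 1 of 6 cumulus markers. One read on a gene of 70 bases was worth about 1.94 to 6.31 TPM in mESCs and 1.03 to 2.82 TPM in embryos, so a snoRNA at 10 TPM rests on a few reads. A single row, Gm24187, held 32.4% of all TPM in each ES_Dux library, against 20.9% and 25.9% in ES_Empty. It held 39.8% in replicate 1 of ES_Obox3 and 53.7% in the unnumbered ES_Obox3 library. In ES_Obox5 it held 32.8% and 33.3%, and in ES_Obox6 26.3% and 29.6%. Since TPM sum to a constant, its part in the levels of the snoRNAs was not tested.

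The host genes are given first, since their promoters carry a known feature of this gene class. Many genes of the translation machinery start in a terminal oligopyrimidine tract, a C followed by a run of C and T. RefSeq positions on GRCm38.p6 were found for 112 of the 120 genes, and 105 of these lie within the span of a longer gene, with strand not compared. The spans belong to 75 host genes, and 21 of them hold at least 2 members each, 51 members together. Of 62 host promoters in RefSeq, 22 (35.5%) had a C followed by at least 4 letters C or T starting within 5 bases of the annotated start, against 4989 of 27025 promoters of all genes (18.5%). The search read the promoter's own strand only, and a match describes letters and not a start site in these cells. The promoters below run from 40 bases before the annotated start to 20 bases after it, with the run found in capitals. Rpl13a holds 4 box C/D genes, and Snhg12 holds Snord99 of box C/D beside the box H/ACA genes Snora16a, Snora44 and Snora61. Snhg3 holds box H/ACA genes, Zbed3 spans Snora47 and Rps3, which holds Snord15a and Snord15b, had no run.
Rpl13a promoter, chr7:45128726-45128785, minus strand: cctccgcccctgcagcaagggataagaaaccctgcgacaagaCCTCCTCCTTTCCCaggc
Snhg12 promoter, chr4:132308638-132308697, plus strand: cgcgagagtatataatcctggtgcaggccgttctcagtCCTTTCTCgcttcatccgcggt
Snhg3 promoter, chr4:132353667-132353726, minus strand: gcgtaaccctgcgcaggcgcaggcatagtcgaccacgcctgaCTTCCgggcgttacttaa
Zbed3 promoter, chr13:95323565-95323624, plus strand: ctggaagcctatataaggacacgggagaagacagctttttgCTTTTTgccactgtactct
Rps3 promoter, chr7:99483690-99483749, minus strand: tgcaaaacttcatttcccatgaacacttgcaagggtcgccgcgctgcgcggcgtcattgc

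All 120 genes reached 10 TPM in at least 2 mESC libraries, and 79 did so in the embryo table, 48 of box C/D and 31 of box H/ACA. In every mESC library 49 box C/D and 36 box H/ACA genes stood at 10 TPM or more, and in every embryo library 22 and 18. The rule left out 21 rows, of which 17 were copies of Snord116, the cluster deleted in the human Prader-Willi syndrome, none above 4.70 TPM. Just outside the threshold, the second-highest library of Snord67 had 9.79 TPM and that of Snora36b 9.79 TPM. Just inside it, Snord90 had 11.0 TPM and Snora19 16.8 TPM. Snora16a, Snora43 and Snord80 each have 2 gene rows with close values, so that 117 distinct symbols remain and reads may be split between the rows.

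Box C/D genes had the lower median TPM in every library. Their median was 25.3 to 114 TPM over the mESC libraries, against 60.7 to 202 TPM for box H/ACA, and 7.29 to 15.6 TPM against 11.5 to 18.8 TPM over the embryo libraries. The summed level went the other way, with box C/D at 2.00 to 2.29 times the box H/ACA sum in mESCs and 1.37 to 1.75 times in embryos, for 80 genes against 40 and with a few very abundant box C/D genes. The classes differ in length, and by length their order in mESCs was mixed. From 130 bases the medians were 1834 TPM for box C/D (4 genes) and 177 TPM for box H/ACA (15 genes). From 60 to 79 bases they were 46.2 TPM (32 genes) and 72.1 TPM (2 genes). Together the 120 genes took 1.31 to 4.33% of all TPM in mESCs and 0.309 to 0.594% in embryos. In mESCs both class medians were highest in ES_Crxos3 (105 and 202 TPM) and in ES_Obox6 replicate 1 (114 and 164 TPM). They were lowest in the ES_Dux libraries (25.3 and 27.8 TPM for box C/D, 60.7 and 67.7 TPM for box H/ACA) and in the unnumbered ES_Obox3 library (27.1 and 65.2 TPM). ES_Empty had 55.2 and 55.2 TPM for box C/D and 77.4 and 94.5 TPM for box H/ACA. In bulk samples fewer cells of a type and less RNA per cell cannot be told apart.

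**Figure D1:**
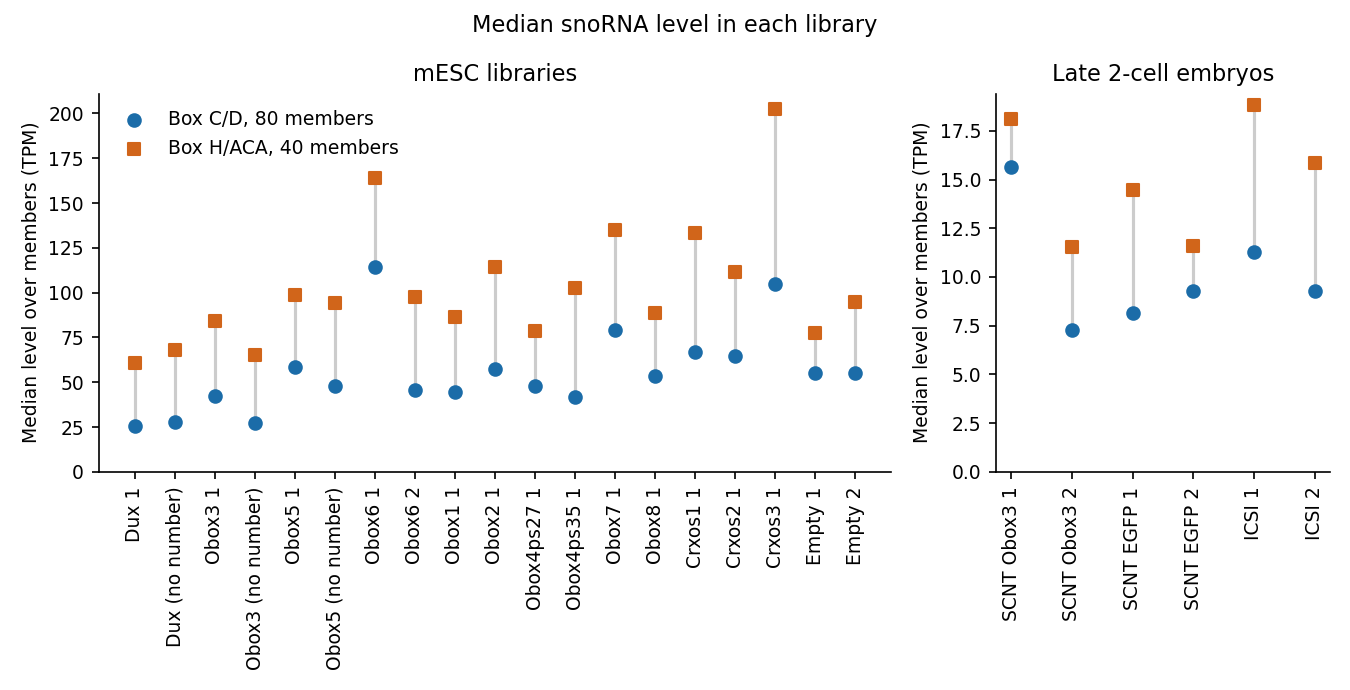
Median TPM over the 80 box C/D genes (circles) and the 40 box H/ACA genes (squares) in each library, mESCs left and late 2-cell embryos right, with separate axes because the tables were normalised separately. The box H/ACA median lies above the box C/D median in all 25 libraries. Among the mESC libraries 1 ES_Dux library has the lowest box H/ACA median (60.7 TPM).

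Some libraries stood apart from their replicate in snoRNA level. ES_Obox6 replicate 1 exceeded replicate 2 by a median of 1.04 on the log2 scale over the members, SCNT_Obox3_L2C replicate 1 exceeded replicate 2 by 0.87, and ES_Obox3 replicate 1 exceeded the unnumbered library by 0.48. The other replicate pairs differed by at most 0.19 in either direction. Correlations across the members between replicates were 0.895 to 0.962 in mESCs and 0.852 to 0.885 in embryos. Within the mESC table the highest library of a box C/D gene was a median of 7.37 times its lowest, against 4.26 times for box H/ACA. In the embryo table these ratios were 4.07 and 2.87, over the genes with no library listed at 0. An mESC library listed at 0 occurred for 12 of 80 box C/D genes and 1 of 40 box H/ACA genes, and an embryo library at 0 for 18 and 1. Box C/D genes were also shorter, with a median of 68 bases against 122, so that the same TPM rests on fewer reads.

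Box C/D genes led in mESCs. Snord15a (chr7:99482785-99482932) had a median of 2943 TPM, from 1913 to 4754 TPM, and Snord15b (chr7:99479563-99479707) a median of 1821 TPM. Both sit in Rps3 and guide methylation of 28S ribosomal RNA, as known from human cells. Snord17 (chr2:144265982-144266202), in Snx5 and at 221 bases the longest box C/D member, had a median of 1848 TPM. Snord22 (chr19:8725866-8725991), a factor of 18S processing in Snhg1, had 1132 TPM and Snord21 (chr5:107904555-107904648), in Rpl5, 743 TPM. Among box H/ACA genes the leading medians belonged to Snora21 (1103 TPM, in Rpl23), Snora23 (698 TPM, in Ipo7), Snora81 (557 TPM, in Eif4a2), Snora73a (379 TPM, in Snhg3) and Snora74a (365 TPM). Snora21, Snora23 and Snora81 guide pseudouridylation of ribosomal RNA, and Snora73a, the U17 RNA, is needed for 18S processing. The 5 highest members held 41.1% of the members' TPM in mESCs and 36.4% in embryos.

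In embryos the order was similar apart from its head. Snord21 led box C/D with a median of 333 TPM, followed by Snord22 (216 TPM), Snord15a (211 TPM), Snord87 (196 TPM) and Snord17 (183 TPM). Snora47 led box H/ACA and all members, followed by Snora21 (184 TPM), Snora74a (142 TPM), Snora23 (75.6 TPM) and Snora78 (66.2 TPM). The member medians of the 2 tables had a Spearman correlation of 0.747 across the 120 genes, which share depth and gene length and are not independent. For 118 members the mESC median was the higher one, by a median of 2.47 on the log2 scale. The tables were normalised separately, so this difference was not tested, and the row Gm47305 alone held 33.7 to 43.1% of the embryo TPM.

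Only Snora47 and Snord61 had a higher median in the embryo table. Snora47 (chr13:95330611-95330736), a box H/ACA gene in the span of Zbed3, had a median of 12.3 TPM in mESCs and 521 TPM in embryos. Its embryo values were 854 and 321 TPM in SCNT_Obox3_L2C, 492 and 372 TPM in SCNT_EGFP_L2C and 733 and 550 TPM in ICSI_L2C. These groups did not differ past the threshold, with adjusted p of 0.779 for SCNT_Obox3_L2C against SCNT_EGFP_L2C and 0.42 for SCNT_EGFP_L2C against ICSI_L2C (limma, Benjamini-Hochberg). Zbed3, a zinc-finger gene transcribed in oocytes, showed the same split between the tables, with 1.71 to 21.0 TPM in mESCs and 1495 to 3024 TPM in embryos. Whether reads of the Zbed3 transcript were counted for Snora47 was not tested, since the sources used here do not give the strand and overlap settings. Snord61 (chrX:57391448-57391509), a box C/D gene in Rbmx, had a median of 4.24 TPM in mESCs and 9.60 TPM in embryos, on about 1.75 and 4.80 reads.

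Within mESCs Snora47 was highest in ES_Obox5. It had 40.6 and 35.7 TPM there, against 9.73 and 7.43 TPM in ES_Empty, and 31.0 TPM in the ES_Obox1 library and 30.3 TPM in the ES_Obox4ps35 library. The ES_Obox5 libraries lay above both ES_Empty libraries, with a log2 fold change of 2.04 (SE 0.64) and an adjusted p of 0.0746 (limma), which misses the threshold, on about 22.4 reads against 4.57. Zbed3 had 21.0 and 18.6 TPM in ES_Obox5, against 7.58 and 6.62 TPM in ES_Empty, and was called higher with a log2 fold change of 1.36. In ES_Obox1 and ES_Obox4ps35, the other libraries with high Snora47, Zbed3 had 8.56 and 6.87 TPM.

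**Figure D2:**
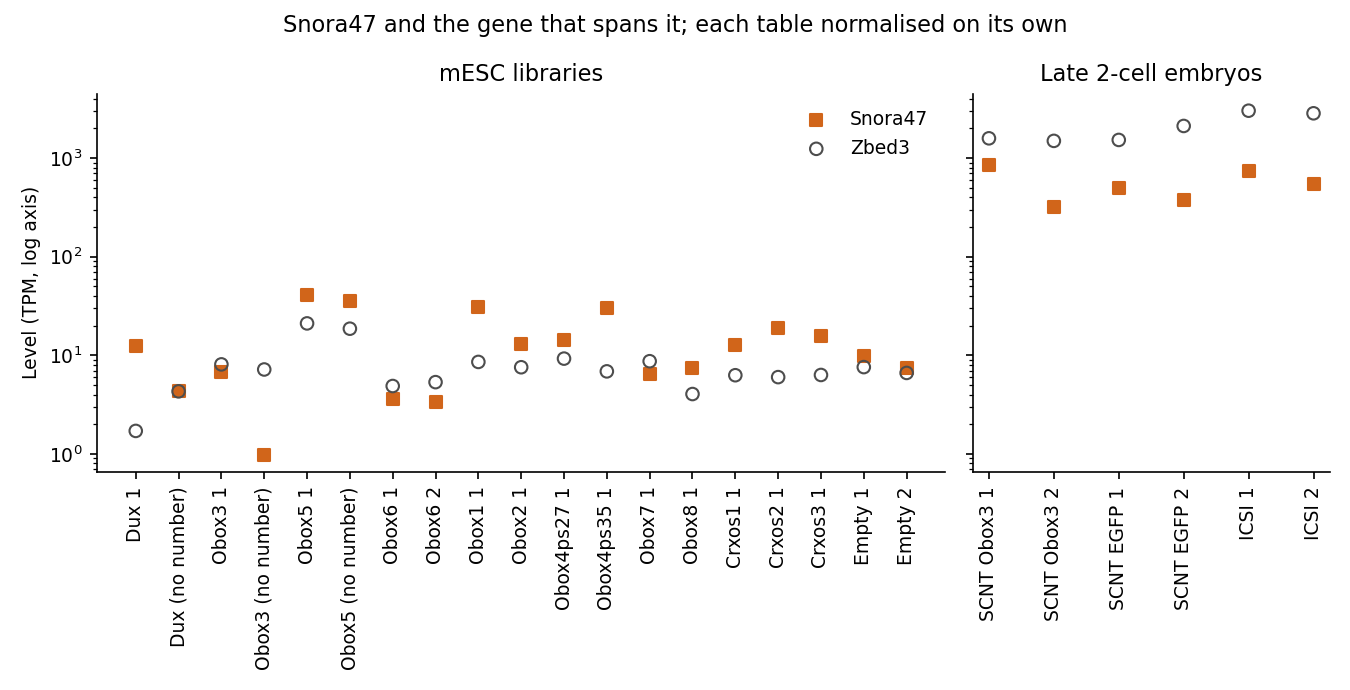
TPM of Snora47 (squares) and of Zbed3, the gene that spans it (open circles), in each library on a log axis, mESCs left and late 2-cell embryos right. Snora47 lies between 0.983 and 40.6 TPM in mESCs and between 321 and 854 TPM in embryos, and Zbed3 is likewise higher in the embryo table, while in ES_Obox1 it has 8.56 TPM beside 31.0 TPM of Snora47.

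Differences were fitted on log2(TPM + 1) over all genes of a table, and calls needed an adjusted p under 0.05 together with a log2 fold change of 1 or more in either direction. Members had the larger SE, with a median of 0.45 against 0.27 for all genes in mESCs, and 0.48 against 0.27 in embryos. A lower share of calls among members therefore does not mean a smaller change. The mESC comparisons share the ES_Empty libraries, and each pair of embryo comparisons shares a group. The labels do not say whether replicates were separate cultures or embryo collections, and a p-value here covers the spread among these libraries alone.

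Dux is a homeobox factor that starts the 2-cell programme, and of the 4 mESC conditions with 2 libraries ES_Dux had the most called snoRNA genes, and the most called genes of any kind. The 9 conditions with 1 library each were not tested. In ES_Dux 27 of 120 members fell and 0 rose, 21 of 80 box C/D genes and 6 of 40 box H/ACA genes, and 35 members had an unadjusted p under 0.05, against 66.7% of all genes. With no filter on low values 0 members were called lower. The share of all genes called in that fit is not given here, so the count does not single out the members. Of the 27 calls, 12 were among members with at least 10 reads on average. Of all genes tested 44.4% were called lower and 4.12% higher. The members' share of lower calls (22.5%) was below the background, at a larger median SE (0.45 against 0.27). Their median log2 fold change was -0.87 for box C/D and -0.41 for box H/ACA, against -0.97 for all genes tested. When each library was rescaled by its median ratio to the others, the median of all genes moved from -0.97 to -0.04, and the split of calls turned to 28 members higher and 4 lower, against 6.98% higher and 2.14% lower among all genes. The class medians on that scale were 0.46 and 1.02. The median over all members was -0.63 on the deposited scale and 0.80 after rescaling, so the direction in ES_Dux depended on the scaling. Cell state markers moved with this comparison. The summed level of the 7 mESC markers was 883 and 950 TPM in ES_Dux, against 2328 and 1978 TPM in ES_Empty, and that of 5 markers of the 2-cell stage was 1805 and 2016 TPM in ES_Dux, against 1.77 and 0.135 TPM in ES_Empty. Genes at 1 TPM or more numbered 12071 and 12806 in ES_Dux, against 15855 and 16497 in ES_Empty. The 7 mESC markers also summed lower in ES_Obox3 (1260 and 969 TPM), ES_Obox5 (1409 and 1374 TPM) and ES_Obox6 (1632 and 1435 TPM). The part of these shifts in the snoRNA values was not tested.

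Some box C/D genes fell in ES_Dux on both scales. Snord52 (chr17:34950950-34951008) had 5.35 and 6.06 TPM in ES_Dux, against 59.0 and 54.4 TPM in ES_Empty. Its log2 fold change was -3.11 (SE 0.23) with an adjusted p of 7.76e-05 (limma), and -1.77 after rescaling. Snord78, from Gas5, a noncoding host gene that also carries Snord47 and Snord80, had 8.56 and 6.06 TPM in ES_Dux, against 65.1 and 51.3 TPM in ES_Empty. That was a log2 fold change of -2.84 (SE 0.23) at an adjusted p of 0.000119, and of -1.48 after rescaling. Snord50b, carried by SNHG5 in human, had 1.96 and 4.17 TPM, against 37.6 and 31.8 TPM in ES_Empty. It fell by 3.19 on the log2 scale (SE 0.34, adjusted p 0.000258), and by 1.95 after rescaling. For each of these genes both ES_Dux libraries lay far below both ES_Empty libraries. Snord98 (chr10:62765579-62765606) was listed at 0 in both ES_Dux libraries, against 16.5 and 18.9 TPM in ES_Empty, on about 2.15 reads. These 4 genes were the ones called lower on the rescaled values.

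Other box C/D genes were called lower in ES_Dux on the deposited scale only. Snord64, from the imprinted Snrpn region, had 12.6 and 7.47 TPM in ES_Dux, against 72.2 and 73.5 TPM in ES_Empty, and fell by 2.78 on the log2 scale (SE 0.35, adjusted p 0.000395). Its neighbour in that region, Snord107, had 18.2 and 15.7 TPM, against 51.8 and 38.1 TPM in ES_Empty (-1.34, adjusted p 0.00802). Snord118 (chr11:69073426-69073562), the U8 RNA needed for 28S and 5.8S maturation and a gene with its own promoter, had 199 and 211 TPM in ES_Dux, against 479 and 655 TPM in ES_Empty. It rested on about 168 reads in ES_Dux and 341 in ES_Empty, with a log2 fold change of -1.45 (SE 0.19) and an adjusted p of 0.000466. After rescaling, the log2 fold change was -0.0026 for Snord118 and 0.06 for Snord107, while that of Snord64 was -1.40. Snord43, Snord88a, Snord50a, Snord92 and Snord95 fell by 2.72, 2.89, 2.42, 2.12 and 2.04 on the log2 scale. In the group of 10 members with a role in cutting the ribosomal precursor, only Snord118 and Snord14e fell, and the median of the group was -0.23. Snord14e had 14.1 and 12.2 TPM in ES_Dux, against 28.4 and 44.4 TPM in ES_Empty.

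The box H/ACA genes that fell in ES_Dux were 6. Snora19 had 0 and 2.27 TPM, against 8.14 and 10.9 TPM in ES_Empty, on about 2.33 reads in ES_Empty. Snora2b fell by 1.38 on the log2 scale, again on few reads, with 2.58 and 2.92 TPM in ES_Dux and 7.84 and 9.73 TPM in ES_Empty. Snora78, in Snhg9, was the well-covered one, at 98.7 and 87.6 TPM in ES_Dux, against 222 and 244 TPM in ES_Empty. Its log2 fold change of -1.31 (SE 0.22, adjusted p 0.00107) became 0.13 after rescaling. Snora65, Snora68 and Snora61 fell by 1.27, 1.19 and 1.05, and on the rescaled values had log2 fold changes of 0.17, 0.24 and 0.39.

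Several of the most abundant members had TPM that overlapped between ES_Dux and ES_Empty. Snord15a had 2679 and 2923 TPM in ES_Dux, against 2844 and 2943 TPM in ES_Empty, with a log2 fold change of -0.05 and an SE of 0.16 (adjusted p 0.827). Snord22 had 916 and 1220 TPM, against 957 and 993 TPM in ES_Empty (0.12, SE 0.21). Snora74a, at 318 and 378 TPM in ES_Dux, against 320 and 386 TPM in ES_Empty, had a log2 fold change of -0.02 (SE 0.21). Those 3 were among the 28 called higher after rescaling, with log2 fold changes of 1.40, 1.57 and 1.43. The list of 28 also held Snord17, Snord21, Snora23 and Snora31, and 19 of the 28 were box H/ACA genes. Snora16a and Snora43 count 2 times each among these, once for each of their gene rows.

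The log2 fold change in ES_Dux was higher for longer genes in both classes. The median log2 fold change of box C/D genes was -1.08 under 80 bases (51 genes), -0.39 from 80 to 129 bases (18 genes) and -0.10 from 130 bases (4 genes). For box H/ACA it was -1.05 (3 genes), -0.51 (21 genes) and -0.23 (15 genes). Other short RNA genes with a mean of at least 10 TPM had medians of -1.43, -1.02 and -0.06 in the same length classes. After rescaling the order stayed and the sign turned, with medians of 0.30, 1.04 and 1.35 for box C/D, 0.39, 0.90 and 1.21 for box H/ACA and -0.04, 0.37 and 1.36 for the other short genes. Across genes, which are not independent replicates, the Spearman correlation of change with length was 0.40 in box C/D and 0.35 in box H/ACA. Of the 27 genes that fell, 9 with a RefSeq length rested on fewer than 10 reads in each group.

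**Figure D3:**
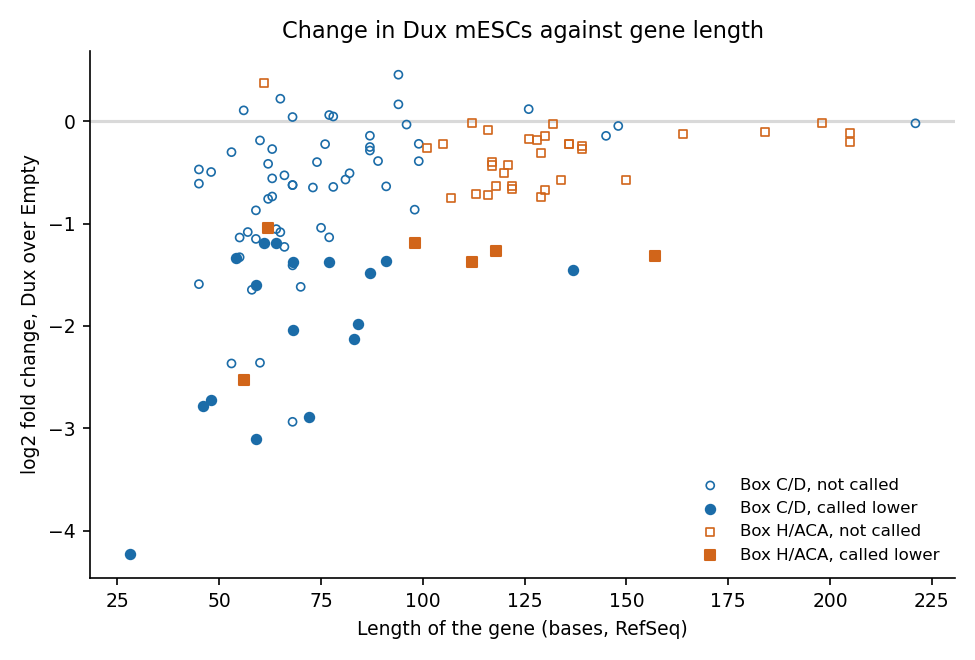
Log2 fold change of each member in ES_Dux over ES_Empty against its RefSeq length in bases, with box C/D as circles, box H/ACA as squares and called genes filled. Genes of 130 bases or more lie at -0.68 or above, apart from Snord118 (-1.45) and Snora78 (-1.31), while the shorter ones reach -4.22 (Snord98).

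In ES_Obox3 4 of 120 members fell and 0 rose, against 13.6% lower and 4.67% higher among all genes tested. At an unadjusted p under 0.05, 28 members passed, against 43.5% of all genes. The medians were -0.61 for box C/D and -0.56 for box H/ACA, against -0.42 for all genes. Snord64 had 29.7 and 33.4 TPM in ES_Obox3, against 72.2 and 73.5 TPM in ES_Empty, with a log2 fold change of -1.18, an SE of 0.35 and an adjusted p of 0.0341 (limma). Snord50b had 14.6 and 15.7 TPM, against 37.6 and 31.8 TPM in ES_Empty (-1.14, adjusted p 0.0344). Both ES_Obox3 libraries lay at about the same level for these genes, and below both ES_Empty libraries. Snord88c had 13.0 and 4.02 TPM, against 28.1 and 38.4 TPM in ES_Empty (-2.01, adjusted p 0.0481), and Snora28, in Eif5, 18.4 and 12.8 TPM, against 27.5 and 39.6 TPM (-1.05, adjusted p 0.0264). The count of lower members moved with single libraries. It was 1 without the unnumbered ES_Obox3 library, 13 without replicate 1 of ES_Obox3, 2 and 0 without replicate 1 and 2 of ES_Empty, and 15 without either ES_Obox6 library, and 1 member was higher without the unnumbered ES_Obox3 library or replicate 2 of ES_Empty. After rescaling, which moved the median of all genes to 0.00, 0 members were lower and 1 was higher, against 3.75% lower and 7.77% higher among all genes. That member was Snora31.

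Snora31 (chr14:75847923-75848034), a guide for pseudouridylation of ribosomal RNA in human that sits in Tpt1, was the only member called higher in an mESC comparison on the deposited scale. It had 145 and 111 TPM in ES_Obox6, against 45.5 and 53.6 TPM in ES_Empty, a log2 fold change of 1.34 (SE 0.20) with an adjusted p of 0.00727 (limma). The call was lost with no filter on low values (adjusted p 1) and with the replicate number as a block (0.138), and without replicate 1 of ES_Empty (0.0683) or of ES_Obox6 (0.0602), with log2 fold changes of 1.16 to 1.34 in these fits. In ES_Obox5 it had 98.8 and 98.6 TPM (0.99, adjusted p 0.0149) and in ES_Obox3 94.6 and 78.3 TPM (0.79, adjusted p 0.0209), both short of the fold threshold against the same ES_Empty libraries. In ES_Dux it had 53.2 and 44.6 TPM. The single libraries ranged from 47.1 TPM in ES_Obox4ps35 to 105 TPM in ES_Crxos3. After rescaling it was called higher in all 4 of these comparisons, with log2 fold changes of 1.41 in ES_Dux, 1.42 in ES_Obox3, 1.29 in ES_Obox5 and 1.51 in ES_Obox6. These comparisons share their 2 control libraries, so the 4 calls are not independent of each other. In embryos Snora31 had 12.4 to 22.6 TPM.

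Of 120 members 0 rose and 0 fell in ES_Obox5 by limma, against 4.79% higher and 5.47% lower among all genes, and 7 members had an unadjusted p under 0.05, against 30.0% of all genes. The medians were 0.06 for box C/D and 0.12 for box H/ACA, against -0.20 for all genes. Rescaling called Snora31 and Snora47 higher, 2 members in all, against 6.09% higher and 2.39% lower among all genes. Leaving out either ES_Obox3, ES_Empty or ES_Obox6 library gave 1 higher member, and leaving out either ES_Obox3 library gave 1 lower. ES_Obox6 had 1 member higher (Snora31) and 0 lower, against 2.39% higher and 1.99% lower among all genes, with medians of 0.42 and 0.37 against -0.09 for all genes. At an unadjusted p under 0.05 there were 14 members, against 19.9% of all genes. Snora23 had 1049.6 and 1184 TPM in ES_Obox6, against 648 and 639 TPM in ES_Empty (0.79, adjusted p 0.068), and Snord22 1668 and 1574 TPM, against 957 and 993 TPM (0.73, adjusted p 0.0898). Both ES_Obox6 libraries lay above both ES_Empty libraries for these 2 genes, which miss the threshold. Without replicate 1 of ES_Obox6, the library with high snoRNA levels, 0 members were higher and 1 was lower, and without replicate 2 there were 6 higher. The count of higher members was 0 without replicate 1 of ES_Empty, and 2 without its replicate 2 or without any ES_Dux or ES_Obox3 library.

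**Figure D4:**
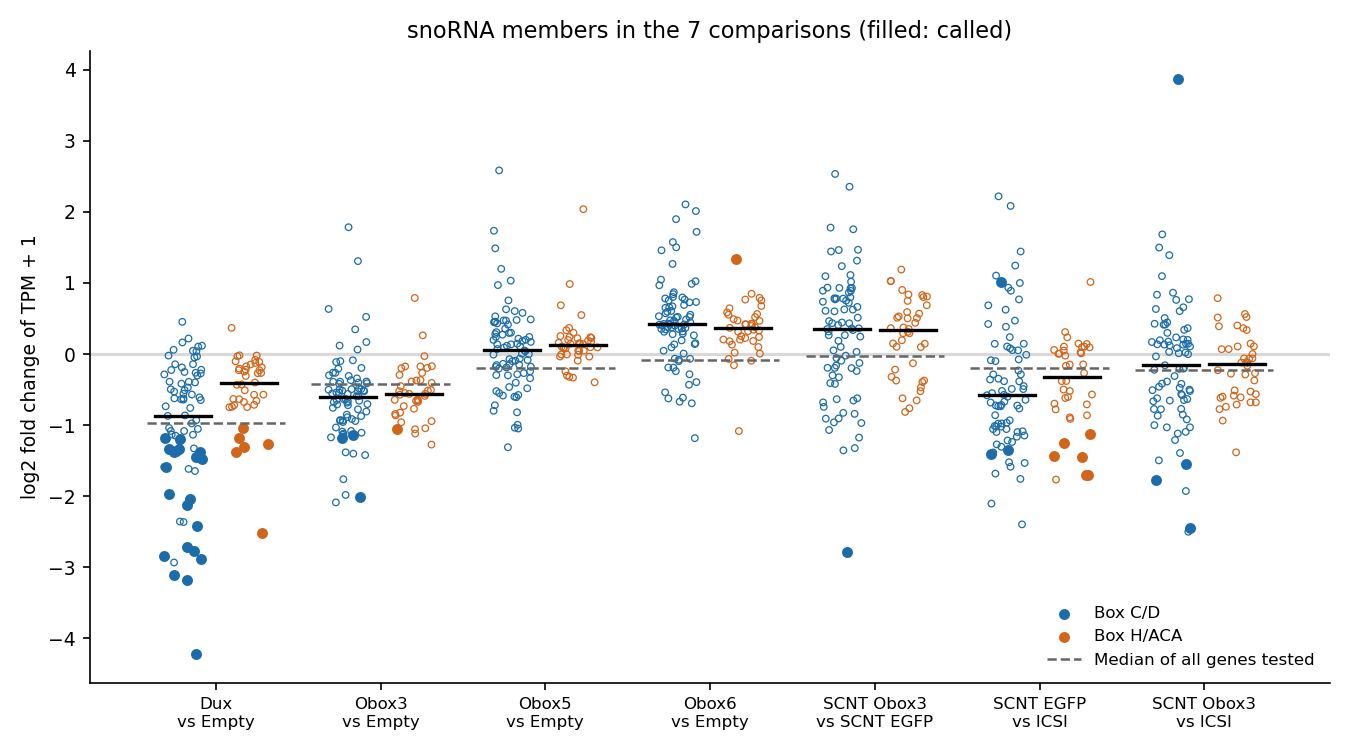
Log2 fold change of TPM + 1 for each member in the 7 comparisons, box C/D (left cloud) and box H/ACA (right cloud), with called genes filled, class medians as solid bars and the median of all genes tested dashed. In ES_Dux the class medians of -0.87 and -0.41 lie above the dashed line at -0.97, and in ES_Obox6 they lie at 0.42 and 0.37.

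SCNT embryos with Obox3 mRNA were compared with those that received EGFP mRNA, to see what Obox3 changes in them. Of 119 members tested 0 rose and 1 fell, against 0.11% higher and 0.0438% lower among all genes, and 15 members had an unadjusted p under 0.05, against 18.0% of all genes. The medians were 0.36 for box C/D and 0.33 for box H/ACA, against -0.03 for all genes. The gene that fell was Snord95 (chr11:48803139-48803206), in Rack1, listed at 0 in both SCNT_Obox3_L2C libraries, against 6.09 and 5.75 TPM in SCNT_EGFP_L2C, on about 4 reads in each. Its adjusted p was 0.0456 (limma), and leaving out any of the 6 libraries ended the call, with 0 members lower. Snora78 had 69.7 and 66.8 TPM in SCNT_Obox3_L2C, against 21.0 and 40.9 TPM in SCNT_EGFP_L2C, a log2 fold change of 1.19 with an adjusted p of 0.129. Snord85 had 18.7 and 8.68 TPM, against 2.84 and 3.35 TPM in SCNT_EGFP_L2C (1.76, adjusted p 0.0911). For both genes the groups of libraries did not overlap, and neither passed the threshold.

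Several snoRNA genes had lower TPM in SCNT embryos with EGFP mRNA than in ICSI embryos. Of 119 members 8 fell and 1 rose, against 12.5% lower and 4.8% higher among all genes, and the share of lower calls was 2 of 79 for box C/D and 6 of 40 for box H/ACA. At an unadjusted p under 0.05, 25 members passed, against 37.1% of all genes. The medians were -0.58 and -0.32, against -0.20 for all genes. The 5 markers of the 2-cell stage summed to 101 and 139 TPM in SCNT_EGFP_L2C, against 466 and 319 TPM in ICSI_L2C. In SCNT_Obox3_L2C these markers summed to 157 and 246 TPM, and their part in the snoRNA values was not tested. Snord42b (chr11:78183059-78183113), in Rpl23a, had 21.8 and 15.6 TPM in SCNT_EGFP_L2C, against 39.4 and 59.7 TPM in ICSI_L2C, and fell by 1.35 on the log2 scale (SE 0.26, adjusted p 0.0139 by limma). Snora78 had 21.0 and 40.9 TPM, against 77.4 and 65.6 TPM in ICSI_L2C (-1.25, SE 0.30, adjusted p 0.0304). Snora26 (chr5:74093530-74093650), in Dancr, had 9.84 and 10.1 TPM, against 29.0 and 18.0 TPM in ICSI_L2C (-1.12, adjusted p 0.0266). The libraries of the 2 groups did not overlap for these genes. Both gene rows of Snora16a were called lower, so that it counts as 2 of the 6 box H/ACA calls. It had 5.08 and 1.44 TPM in 1 of the rows, against 10.2 and 13.1 TPM in ICSI_L2C (-1.71, adjusted p 0.0472).

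Snora20, Snora62 and Snord68 fell by 1.45, 1.43 and 1.40 on the log2 scale in SCNT_EGFP_L2C, from ICSI_L2C values of at most 27.8 TPM. Snord95 was the member that rose, with 6.09 and 5.75 TPM in SCNT_EGFP_L2C, against 1.98 and 2.91 TPM in ICSI_L2C, on about 4 reads and 1 read. Of the 9 calls, 5 rested on fewer than 10 reads in each group. The 4 genes in Rpl13a, whose promoter is shown above, Snord32a, Snord33, Snord34 and Snord35a, had log2 fold changes from -1.16 to -0.98, and 0 of them passed the test. Snord32a had 12.1 and 13.5 TPM in SCNT_EGFP_L2C, against 34.1 and 26.2 TPM in ICSI_L2C (adjusted p 0.139). Rescaling left 3 members lower (Snord68, Snord42b and Snora78) and 1 higher, against 8.82% lower and 6.1% higher among all genes. The count of lower members was 15 and 16 without replicate 1 and 2 of SCNT_Obox3_L2C, 5 and 2 without replicate 1 and 2 of ICSI_L2C, and 5 without replicate 1 of SCNT_EGFP_L2C. The rise of Snord95 was lost without replicate 2 of ICSI_L2C or of SCNT_EGFP_L2C, where 0 members rose, and 2 rose without either SCNT_Obox3_L2C library.

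SCNT embryos with Obox3 mRNA, set against the same ICSI_L2C libraries, had 3 members lower and 1 higher, against 6.31% lower and 2.8% higher among all genes. Their medians of -0.16 and -0.14 compare with -0.22 for all genes, and 9 members had an unadjusted p under 0.05, against 30.4% of all genes. Snord42b had 15.4 and 16.5 TPM in SCNT_Obox3_L2C, against 39.4 and 59.7 TPM in ICSI_L2C (-1.55, SE 0.26, adjusted p 0.0173 by limma). Snora78, which was lower in SCNT_EGFP_L2C, had 69.7 and 66.8 TPM in SCNT_Obox3_L2C, against 77.4 and 65.6 TPM in ICSI_L2C. The other calls rested on few reads. Snord88c and Snord95 were listed at 0 in both SCNT_Obox3_L2C libraries, against 4.50 and 4.39 TPM and 1.98 and 2.91 TPM in ICSI_L2C, and Snord98 had 18.8 and 9.75 TPM in SCNT_Obox3_L2C and was listed at 0 in ICSI_L2C. Without replicate 2 of ICSI_L2C 0 members were called in either direction, and without replicate 1 of SCNT_Obox3_L2C 8 were lower and 0 higher. Without replicate 2 of SCNT_Obox3_L2C 0 were higher, and without replicate 1 of SCNT_EGFP_L2C 2 were. Rescaling gave 2 lower and 2 higher, against 3.85% lower and 4.05% higher among all genes.

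The proteins that build snoRNA particles were read from a list of 22 genes, chosen with earlier results of these data known. Snu13 binds the box C/D motif first, Nop56 and Nop58 form the scaffold and Fbl (fibrillarin) is the methyltransferase. Dkc1 (dyskerin), Nhp2, Nop10 and Gar1 form the box H/ACA core. In ES_Dux 17 of the 22 fell and 0 rose, 3 of 4 in the box C/D core, 4 of 4 in the box H/ACA core, 5 of 9 assembly factors and 5 of 5 trafficking and maturation factors, against 44.4% lower among all genes. Nop58 had 11.7 and 14.9 TPM in ES_Dux, against 40.3 and 34.0 TPM in ES_Empty (-1.42, SE 0.29, adjusted p 0.00262 by limma). Gar1 had 14.7 and 10.7 TPM, against 37.0 and 28.5 TPM in ES_Empty (-1.30, adjusted p 0.000812). Coil, the scaffold of Cajal bodies where snoRNAs mature, had 11.6 and 13.4 TPM, against 42.1 and 41.5 TPM in ES_Empty (-1.67, adjusted p 0.00037). On the rescaled values 0 of the 22 were lower and 1 was higher, against 2.14% and 6.98% of all genes.

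In ES_Obox3 Znhit3, an assembly factor of box C/D particles, rose to 63.0 and 52.4 TPM, against 22.1 and 25.4 TPM in ES_Empty (1.25, SE 0.22, adjusted p 0.00437 by limma). Naf1, an assembly factor of box H/ACA particles, fell to 8.48 and 4.12 TPM, against 16.7 and 17.2 TPM in ES_Empty (-1.37, adjusted p 0.0113). Of the 22, 1 was called higher and 1 lower in ES_Obox3, against 4.67% and 13.6% of all genes. After rescaling 4 of the 22 were higher and 0 lower in ES_Obox3, against 7.77% and 3.75% of all genes. In ES_Obox5 and in ES_Obox6 0 of the 22 were called by limma, with 5 and 7 at an unadjusted p under 0.05, against 30.0% and 19.9% of all genes. Rescaling called 3 higher in ES_Obox5, against 6.09% of all genes.

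In SCNT_EGFP_L2C embryos 8 of the 22 fell and 0 rose, against 12.5% lower among all genes. After rescaling 6 fell, against 8.82% of all genes. Fbl had 12.9 and 16.0 TPM, against 32.9 and 36.5 TPM in ICSI_L2C (-1.22, SE 0.20, adjusted p 0.00975 by limma). Snu13 had 19.6 and 31.2 TPM, against 90.0 and 96.5 TPM in ICSI_L2C (-1.87, adjusted p 0.00436). Nhp2 had 52.7 and 77.1 TPM, against 183 and 155 TPM in ICSI_L2C (-1.39, adjusted p 0.00933). The box C/D assembly factors Nufip1 and Znhit6 fell by 1.91 and 1.94, Tgs1, which trimethylates snoRNA caps, by 1.65, the exosome nuclease Exosc10 by 1.14 and Nop58 by 1.01 on the log2 scale. For Fbl, Snu13 and Nhp2 both SCNT_EGFP_L2C libraries lay below both ICSI_L2C libraries.

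With Obox3 mRNA 0 of the 22 were called against SCNT_EGFP_L2C and 0 against ICSI_L2C by limma, with 17 and 7 at an unadjusted p under 0.05, against 18.0% and 30.4% of all genes. Against SCNT_EGFP_L2C the list medians were 0.74 for the box C/D core, 0.67 for the box H/ACA core, 0.67 for assembly and 0.87 for trafficking and maturation, against -0.03 for all genes tested. Znhit6 had 93.3 and 76.8 TPM in SCNT_Obox3_L2C, against 21.3 and 32.0 TPM in SCNT_EGFP_L2C (1.66, SE 0.23, adjusted p 0.0638). Snu13 had 52.1 and 56.0 TPM, against 19.6 and 31.2 TPM in SCNT_EGFP_L2C (1.10, adjusted p 0.102). After rescaling 3 of the 22 were called higher, against 257 of 18252 genes tested.

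**Figure D5:**
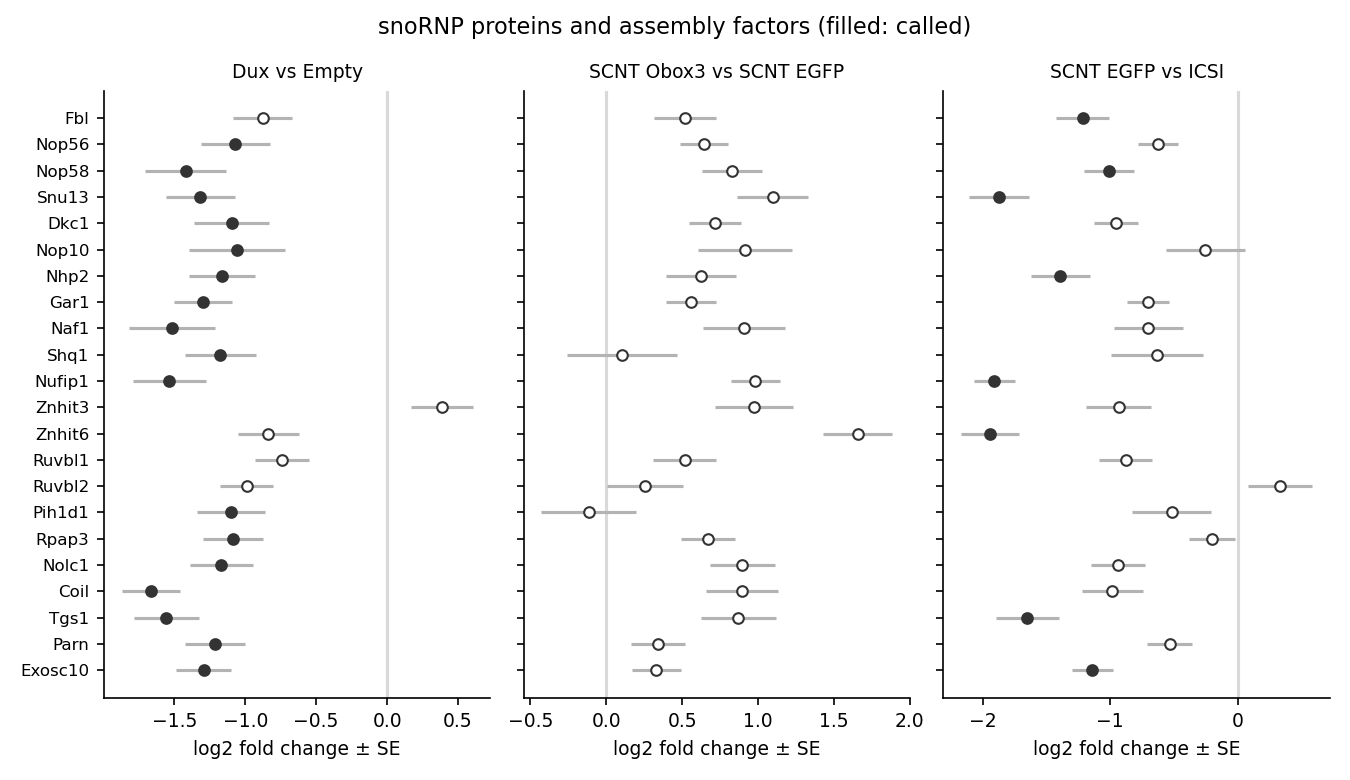
Log2 fold change with its standard error for 22 snoRNA-particle proteins and assembly factors in ES_Dux over ES_Empty, SCNT_Obox3_L2C over SCNT_EGFP_L2C and SCNT_EGFP_L2C over ICSI_L2C, with called genes filled and a separate axis per panel. Filled points are lower in ES_Dux for 17 genes and in SCNT_EGFP_L2C for 8, and the middle panel has 0 filled points.

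Member and host levels were only loosely related. Across 105 members the Spearman correlation between the member's and the host's median level was 0.285 in mESCs and 0.274 in embryos, and that between their log2 fold changes ran from -0.07 to 0.43 over the 7 comparisons. Members of the same host had a median correlation of 0.25 over the mESC libraries (39 pairs), against 0.02 for members of different hosts (5317 pairs), after centring each library on its median. In ES_Dux 33 of 75 hosts fell, against 44.4% of all genes, so the share of hosts was that of the background. Of 22 members that fell and have a host, 12 lie in a host that fell. The same share for members that did not fall is not given here. The changes of member and host in ES_Dux had a Spearman correlation of 0.13. In a list of 24 host genes 9 fell in ES_Dux, against the same 44.4%, and after rescaling 0 were lower and 1 was higher, against 2.14% and 6.98% of all genes. Snhg5 had 4.07 and 3.94 TPM in ES_Dux, against 23.8 and 21.3 TPM in ES_Empty (-2.23, adjusted p 0.000249 by limma), and Gas5 19.3 and 20.6 TPM, against 55.6 and 52.1 TPM in ES_Empty (-1.39, adjusted p 0.00365). In SCNT_EGFP_L2C 14 of 73 hosts fell, against 12.5% of all genes, among them Rpl23, the host of Snora21, with 39.2 and 46.0 TPM, against 87.6 and 111 TPM in ICSI_L2C (-1.20, adjusted p 0.00839). Snora21 itself had 175 and 178 TPM there, against 237 and 161 TPM in ICSI_L2C.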

How the data were processed

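Total RNA was sequenced with a stranded SMART-seq kit (Takara), per the labels' protocols. The authors deposited TPM for each gene in 2 tables of 55364 genes that were normalised separately, 19 mESC and 6 embryo libraries of the 88 samples in the series. Every column adds up to 1000000. Tools in the submitters' processing notes that can bear on these tables are featureCounts 1.6.5, HISAT2 and Trim Galore, with the build mm10. Which annotation and strand option were used, and how reads with several places or 2 overlapping genes were counted, is not stated in the sources used here, so reads of a host intron and of a snoRNA, or of near-identical copies, cannot be told apart. The depth is not stated. Reads per gene were approximated from the TPM step of 1 read on 4533 RefSeq genes of up to 400 bases, and from RefSeq lengths, which can differ from the authors' lengths.

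On log2(TPM + 1), limma 3.58.1 (R 4.3.3, statmod 1.5.0) fitted the groups, with trended and robust moderation of variances, over genes at 1 TPM or more in at least 2 fitted libraries. The fits covered 20355 genes in 10 mESC libraries and 18252 genes in 6 embryo libraries, with Benjamini-Hochberg adjustment over all of them, and were tested on simulated data. A fold change on this scale understates the change of low genes. The 3 mESC columns with an unlisted replicate number entered only as a library of their group.

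Named were the 5 members with the highest median per class and table, the 3 largest calls per class and comparison, and members of lists for pre-ribosomal cleavage, Gas5, Snhg1, Rpl13a and the Snrpn region. Others were named after their values were seen: Snord61, Snord85, Snora26 and the remaining called genes, and Snora31 outside ES_Obox6. The members and lists were chosen with earlier results of these data known. Alternatives were another pseudocount, filter or scaling, a replicate block, and each library left out.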

Additional observations from a re-analysis of the deposited data

How the results depend on the processing

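Depth limits members near 10 TPM, and 9 of 27 calls in ES_Dux and 5 of 9 in SCNT_EGFP_L2C against ICSI_L2C rested on fewer than 10 reads in each group. In the order lower in ES_Dux, lower in ES_Obox3, lower in SCNT_Obox3_L2C against SCNT_EGFP_L2C, lower in SCNT_EGFP_L2C against ICSI_L2C and lower in SCNT_Obox3_L2C against ICSI_L2C, restricting to members with at least 10 reads on average, an alternative chosen after seeing the data, left 12, 2, 0, 4 and 1 members, and 0 higher in SCNT_EGFP_L2C and in SCNT_Obox3_L2C against ICSI_L2C. Members without a RefSeq length stay out of it. With no filter on low values all 7 comparisons had 0 calls in either direction among the members, in a fit over 55364 genes whose prior degrees of freedom were 0.83 in mESCs and 0.82 in embryos, against 3.71 and 3.48.

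Median-ratio scaling gave 28 higher and 4 lower in ES_Dux, 1 higher and 0 lower in ES_Obox3 and 2 higher in ES_Obox5. In ES_Obox6 it gave 2 higher and 0 lower, against 569 higher and 268 lower of 20355 genes tested. Among embryos it gave 3 lower in SCNT_EGFP_L2C and 2 higher in SCNT_Obox3_L2C against ICSI_L2C. It turned Snora78 in ES_Dux to 0.13. A pseudocount of 10 gave 1 lower in ES_Obox3, 1 higher in ES_Obox5, 0 lower in SCNT_Obox3_L2C against SCNT_EGFP_L2C, 2 lower and 0 higher in SCNT_EGFP_L2C and 1 lower in SCNT_Obox3_L2C against ICSI_L2C. Keeping only genes at 10 TPM in 2 libraries gave 1 higher in SCNT_Obox3_L2C against SCNT_EGFP_L2C, 0 higher in SCNT_EGFP_L2C, and 0 higher and 1 lower in SCNT_Obox3_L2C against ICSI_L2C.

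Same-numbered libraries had correlations of 0.0140 to 0.0666 between their deviations from the group means, with 1 pair of groups in mESCs (0.0457). In the labels they share a number, and whether they shared a batch was not tested. The replicate number as a block could be fitted in mESCs for ES_Obox6 only, where 0 members were higher. In embryos the replicate block gave 0 lower in SCNT_Obox3_L2C against SCNT_EGFP_L2C and 2 higher in SCNT_EGFP_L2C. It left the other embryo counts within 1.5 times.

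Leaving out 1 library at a time, lower members ranged from 21 to 35 in ES_Dux, 0 to 15 in ES_Obox3, 0 to 1 in ES_Obox5 and in ES_Obox6, 0 to 0 in SCNT_Obox3_L2C against SCNT_EGFP_L2C, 2 to 16 in SCNT_EGFP_L2C and 0 to 8 in SCNT_Obox3_L2C against ICSI_L2C. Higher members ranged from 0 to 0 in ES_Dux, 0 to 1 in ES_Obox3 and ES_Obox5, 0 to 6 in ES_Obox6, 0 to 0 in SCNT_Obox3_L2C against SCNT_EGFP_L2C, 0 to 2 in SCNT_EGFP_L2C and 0 to 2 in SCNT_Obox3_L2C against ICSI_L2C. At 5 TPM the rule takes 122 members and at 20 TPM 115. The counts of the left-out-library, pseudocount, filter and block fits stand without the share of all genes called in the same fit. They therefore do not tell a shift of the members from a shift of the whole table. The cause of these shifts was not tested.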
